A study of Mus musculus with 31 samples.

Results

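Heat shock proteins and molecular chaperones were followed in mouse bone-marrow macrophages during the first 2 hours of contact with live bacteria or with bacterial lipopolysaccharide (LPS). The members were chosen with earlier results of these data known, by a rule on gene symbols that took the HSP70, HSP110, HSP90, small heat shock protein, DNAJ, chaperonin, BAG and FKBP families, the heat shock factors, the disulfide isomerases Pdia4 to Pdia6, and Tcp1, Stip1, Hyou1, Ddit3, Xbp1 and Atf4. They comprised 95 probes for 87 genes, of 13872 probes and 10600 named genes on the array. Of these, 63 probes for 59 genes had a ratio in 3 or more of the 4 mice in each group and were tested, among 7325 tested probes in all. The other 32 probes passed no such filter and are described without a test. Hsp90ab1, Hsf1 and Ahsa1 were not analysed here.

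The tested groups were macrophages of MyD88-/- mice given live log-phase E. coli, wild-type macrophages given the same bacteria, MyD88-/- macrophages given LPS, and wild-type macrophages given LPS. Each group held 4 mice. All mice were 6 to 8 weeks old, and the wild-type strain was C57BL/6J. Marrow cells of both genotypes had grown for 8 days in medium with L929-conditioned medium, which supplies CSF-1, the growth factor that turns marrow precursors into macrophages. E. coli was added at 1 bacterium per macrophage and re-purified LPS of E. coli O111 at 10 ng/mL. The partner channel of each array held RNA of cells of the same mouse given medium alone (mock). MyD88 is missing throughout the MyD88-/- animal, so the cells differentiated as well as responded without it.

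Chaperones bind unfolded or newly made proteins and help them fold. HSP70 proteins bind and release short stretches of a client in a cycle driven by ATP, J-domain (DNAJ) proteins start that cycle, BAG proteins end it, and HSP90 and the ring-shaped chaperonins take over particular clients. Heat and damaged proteins switch on many of these genes through heat shock factors, and an overfull endoplasmic reticulum (ER) raises its own chaperones through the unfolded protein response, in which Atf4 and Ddit3 are transcription factors. Toll-like receptors mostly pass their signal on by the adaptor MyD88, and the LPS receptor TLR4 has the adaptor TRIF as another route.

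The sequence just before the transcription start of the members was searched for letters of the heat shock element and of the ER stress element. Promoter windows of 250 bases before an annotated start came from RefSeq (GRCm38.p6) and were found for 73 of the 87 genes. The heat shock element was searched as GAANNTTC or TTCNNGAA, each of which reads the same on both strands, and the ER stress element as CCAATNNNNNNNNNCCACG on either strand. The heat shock letters stood in a window of 16 of the 73 member genes (21.9%), against 14.5% of all 27025 genes with a window. Hspd1 and Hspe1 share part of a window, and the windows of Hspa1a and Hspa1b are nearly identical. The matches of the 16 genes are therefore not all separate, and only these short forms were searched. The ER stress letters stood in windows of 4 member genes, Hspa5, Hsp90b1, Dnajc3 and Pdia6 (5.48%), against 0.13% of all genes. A match describes the letters and is no evidence of binding.

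Hspa5 is shown because it is the ER chaperone that rose in all 4 groups. Dnajb4 is a J-domain gene that rose in all 4 groups. Hspa1a and Hspa1b, a pair of nearly identical inducible HSP70 genes, are shown because their probes gave opposite values. Capitals mark the matched letters, which the lines below call by the name of the element searched.
Hspa5, chr2:34771840-34772089, plus strand, ER stress element from 65 to 47 bases before the start: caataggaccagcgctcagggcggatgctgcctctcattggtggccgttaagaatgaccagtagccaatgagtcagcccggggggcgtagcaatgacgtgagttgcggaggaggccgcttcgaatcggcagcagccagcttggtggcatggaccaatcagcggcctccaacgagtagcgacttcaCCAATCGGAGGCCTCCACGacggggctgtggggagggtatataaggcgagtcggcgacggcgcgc
Dnajb4, chr3:152193846-152194095, minus strand, heat shock element from 14 to 7 bases before the start: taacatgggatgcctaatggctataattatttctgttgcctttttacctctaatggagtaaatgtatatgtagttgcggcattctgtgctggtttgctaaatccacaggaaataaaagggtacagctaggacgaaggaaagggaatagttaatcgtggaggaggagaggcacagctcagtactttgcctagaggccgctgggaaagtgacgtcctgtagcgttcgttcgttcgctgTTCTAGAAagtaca
Hspa1a, chr17:34972157-34972406, minus strand, heat shock element from 104 to 97 bases before the start: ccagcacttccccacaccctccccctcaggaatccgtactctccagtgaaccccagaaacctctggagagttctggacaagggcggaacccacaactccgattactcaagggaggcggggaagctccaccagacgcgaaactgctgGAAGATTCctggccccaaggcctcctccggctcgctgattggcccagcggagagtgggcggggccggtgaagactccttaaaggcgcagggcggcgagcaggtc
Hspa1b, chr17:34959239-34959488, minus strand, heat shock element from 104 to 97 bases before the start: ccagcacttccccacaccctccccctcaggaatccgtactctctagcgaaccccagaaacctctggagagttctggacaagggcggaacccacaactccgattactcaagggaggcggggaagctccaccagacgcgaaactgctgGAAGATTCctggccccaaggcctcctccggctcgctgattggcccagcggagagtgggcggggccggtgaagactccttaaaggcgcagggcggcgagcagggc
The Hspa1a and Hspa1b windows carry the same letter at 247 of 250 positions. Dnajb4 has another window, at chr3:152210084-152210333, that holds none of the letters searched.

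The values are the authors' log2 ratios of the channels of 31 spotted arrays, which carried between 5564 and 10497 values each. The ratio is read here as stimulated over mock, so a log2 ratio of 1 stands for a doubled RNA level. The labels leave this direction unstated, and it is taken as likely from the titles and from the rise of the textbook LPS genes Tnf, Cxcl2 and Il1a in all 4 groups. Arrays of a mouse in the 2 dye orientations were averaged to 1 ratio per mouse. The ratios hold no RNA level of either channel, so neither the Myd88 genotype nor the macrophage identity of the cells could be read from them. Of 12 macrophage marker genes on the array 10 were tested, and 1 probe was called higher in each response, while 0, 2, 1 and 2 were called lower in MyD88-/- E. coli, wild-type E. coli, MyD88-/- LPS and wild-type LPS. Markers of B cells, T cells, neutrophils, dendritic, erythroid and stromal cells had between 1 and 3 tested probes each. Among these, 1 T cell probe was called lower in all 4 responses, 1 B cell probe lower in MyD88-/- LPS, and 1 dendritic cell probe higher in wild-type LPS. Their part in the results below was not tested.

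Most tested chaperone probes had fitted ratios close to the mock level. In 38 of the 63 tested probes the fitted ratio lay within 0.5 of 0 on the log2 scale in all 4 groups, and 49 probes passed the test in no comparison. How many of all probes did so was not counted. A probe without a call need not lie near mock, as Dnajb5 had a fitted ratio of 1.19 in MyD88-/- E. coli. The median absolute member ratio was 0.18, 0.24, 0.18 and 0.27 in MyD88-/- E. coli, wild-type E. coli, MyD88-/- LPS and wild-type LPS. Over all tested probes it was 0.23, 0.30, 0.23 and 0.28, so the array as a whole also stayed close to mock. Dye-swapped and unswapped arrays of a mouse differed by a median of 0.40 for tested members and 0.44 for all tested probes. Ratios of the size of these medians are thus uncertain on a single array. A call is an adjusted p under 0.05 in limma, with Benjamini-Hochberg adjustment over all 7325 probes. In MyD88-/- E. coli 4 members rose and 2 fell, where 6.35% of all probes rose, 4.42% fell and 10.8% did either. In wild-type E. coli 5 members rose and 7 fell, where 9.43% of all probes rose, 11.8% fell and 21.2% did either. In MyD88-/- LPS 5 members rose and 2 fell, where 5.28% of all probes rose, 4.70% fell and 9.98% did either. In wild-type LPS 4 members rose and 6 fell, where 7.99% of all probes rose, 9.04% fell and 17.0% did either. The share of members called in either direction, 9.52%, 19.0%, 11.1% and 15.9% in the same order of groups, lay near that of all probes. The median member ratio was 0.07 in MyD88-/- E. coli, -0.06 in wild-type E. coli, 0.04 in MyD88-/- LPS and -0.05 in wild-type LPS, against -0.05, -0.06, -0.05 and -0.05 over all tested probes.

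**Figure D1:**
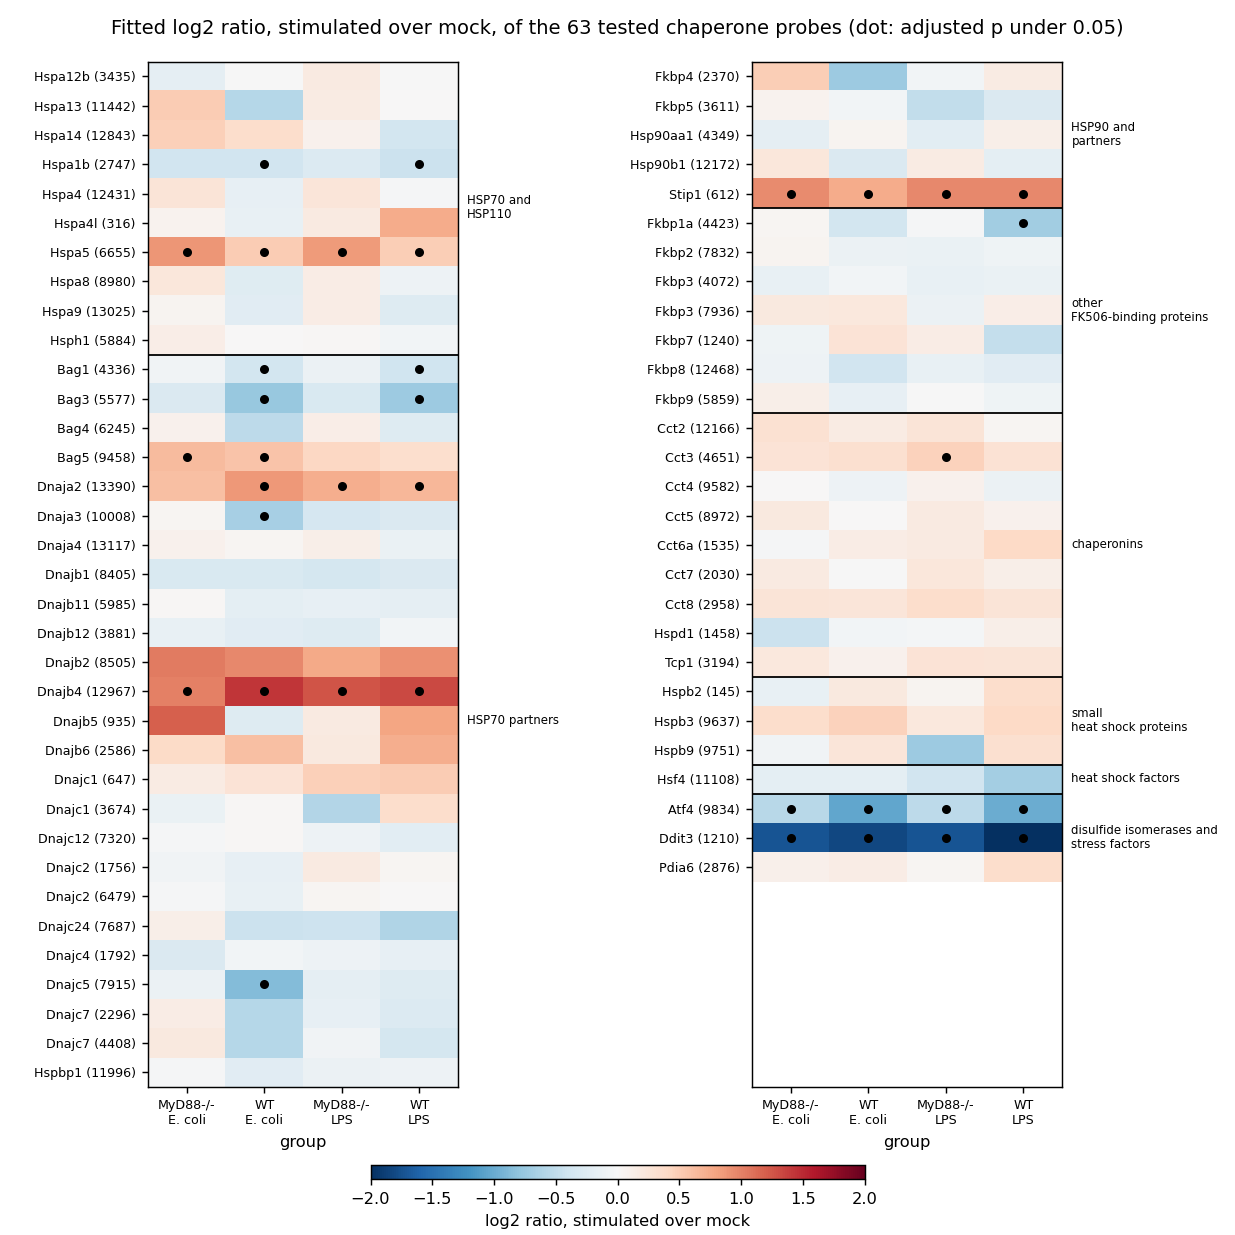
Fitted log2 ratio of stimulated over mock for each of the 63 tested chaperone probes (rows, grouped by role, with probe numbers) in the 4 groups (columns). Red is higher and blue lower than mock, and a dot marks an adjusted p under 0.05. The rows of Hspa5, Dnajb4 and Stip1 are red with dots in all 4 columns, those of Ddit3 and Atf4 blue with dots in all 4.

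5 genes were called in all 4 responses. Hspa5, Dnajb4 and Stip1 rose in every group, and Ddit3 and Atf4 fell in every group. Of all tested probes 3.49% rose in all 4 responses and 2.44% fell in all 4, against 4.76% and 3.17% of the members, so these counts lay near the background. The 5 code for an ER chaperone, a cytosolic J-domain protein, an adaptor between HSP70 and HSP90, and a pair of stress transcription factors. Dnaja2 was called in 3 responses, Bag1, Bag3, Bag5 and Hspa1b in 2 each, and Cct3, Dnaja3, Dnajc5 and Fkbp1a in 1 each. In bulk RNA, a change in the number of cells that express a gene and a change in RNA per cell cannot be told apart.

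Among the HSP70 and HSP110 genes 10 of 14 probes were tested, and Hspa5 was called higher in each response. Hspa5, also called BiP or GRP78, is the main HSP70 of the ER. Its log2 ratio was 0.93, 0.72, 0.82 and 1.04 in the 4 MyD88-/- mice given E. coli, against 0.48, 0.53, 0.30 and 0.71 in wild-type mice given E. coli. With LPS it was 1.00, 0.65, 1.01 and 0.73 in MyD88-/- mice, against 0.29, 0.47, 0.84 and 0.38 in wild-type mice. All 31 arrays gave a ratio above 0. The genotypes did not overlap with E. coli, and with LPS only 1 wild-type mouse reached the MyD88-/- range. The fitted ratio was 0.88, 0.51, 0.85 and 0.50 in MyD88-/- E. coli, wild-type E. coli, MyD88-/- LPS and wild-type LPS (SE 0.12), a fold of 1.84, 1.42, 1.80 and 1.41. The adjusted p from limma were 9.05e-05, 0.00598, 0.000139 and 0.00828. The call in wild-type LPS ended without wild-type LPS mouse 3 (adjusted p = 0.0609), and both wild-type calls ended when only the group itself was fitted (0.0763 with E. coli and 0.100 with LPS).

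No other tested HSP70 or HSP110 gene was called higher. Hspa8, the constitutive cytosolic HSP70, had fitted ratios of 0.23, -0.24, 0.15 and -0.10 in MyD88-/- E. coli, wild-type E. coli, MyD88-/- LPS and wild-type LPS (SE 0.14). Hspa9, the mitochondrial HSP70, had 0.06, -0.23, 0.14 and -0.26 (SE 0.15), and Hspa4, an HSP110 relative that exchanges nucleotide on HSP70, had 0.25, -0.17, 0.24 and -0.03 (SE 0.15). None of these passed the test in any group. Hsph1, a heat-inducible HSP110, had 0.13, 0.00, 0.03 and -0.06 (SE 0.12) and was not called.

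The inducible HSP70 pair gave opposite readings. The mouse ratios of Hspa1b were -0.02, -0.28, -0.37 and -0.87 in MyD88-/- E. coli, against -0.21, -0.43, -0.36 and -0.51 in wild-type E. coli. They were -0.41, -0.06, -0.16 and -0.47 in MyD88-/- LPS, against -0.31, -0.35, -0.47 and -0.57 in wild-type LPS. All 16 mouse ratios lay below 0 and the genotypes overlapped. The fitted MyD88-/- values of Hspa1b, -0.38 with E. coli and -0.27 with LPS, did not pass (adjusted p = 0.0758 and 0.229), while it fell to -0.38 in wild-type E. coli (adjusted p = 0.0498) and to -0.42 in wild-type LPS (adjusted p = 0.0339, SE 0.13). Both calls depended on single mice. That in wild-type LPS ended without any 1 of its mice (adjusted p between 0.0655 and 0.125), and that in wild-type E. coli likewise (0.0658 to 0.164). Fitting each group alone also ended both (0.138 with E. coli and 0.0971 with LPS), and the wild-type E. coli call ended with centred arrays, robust eBayes or 2 mice per group as the filter (0.0585, 0.0515 and 0.0680). Without MyD88-/- E. coli mouse 1 the MyD88-/- E. coli value of -0.51 passed instead (adjusted p = 0.0340).

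The Hspa1a probe had a value in 13 of 16 mice, too few in MyD88-/- LPS to be tested with the other members. Its log2 ratio was 1.35, 1.72 and 2.55 in 3 MyD88-/- mice given E. coli, against 3.27, 1.07, 0.93 and 2.57 in wild-type mice given E. coli. With LPS it was 2.07 and 0.70 in 2 MyD88-/- mice, against 2.70, 3.77, 3.14 and 2.34 in wild-type mice. All 13 ratios and 21 of 22 arrays lay above 0, and with LPS every wild-type mouse lay above both MyD88-/- mice. When 2 mice with a value sufficed in each group, 8923 probes were tested and Hspa1a was called higher in MyD88-/- E. coli (1.87 ± 0.46 SE, adjusted p = 0.0253), wild-type E. coli (1.96 ± 0.40, adjusted p = 0.00525) and wild-type LPS (2.99 ± 0.40, adjusted p = 0.000327), each by limma. Under that filter 4.94%, 7.62% and 6.24% of all probes were called higher in these groups, and MyD88-/- LPS did not pass (1.39 ± 0.56, adjusted p = 0.197). The call in MyD88-/- E. coli ended without its mouse 3 (adjusted p = 0.0936) or mouse 4 (0.173), while no single mouse ended the wild-type calls. The MyD88-/- minus wild-type difference with LPS was -1.60 ± 0.69 (adjusted p = 0.562). Because the genes are nearly identical in sequence, how the RNA of each divides between the spots is not known from these files, and the values are uncertain for either gene alone.

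**Figure D2:**
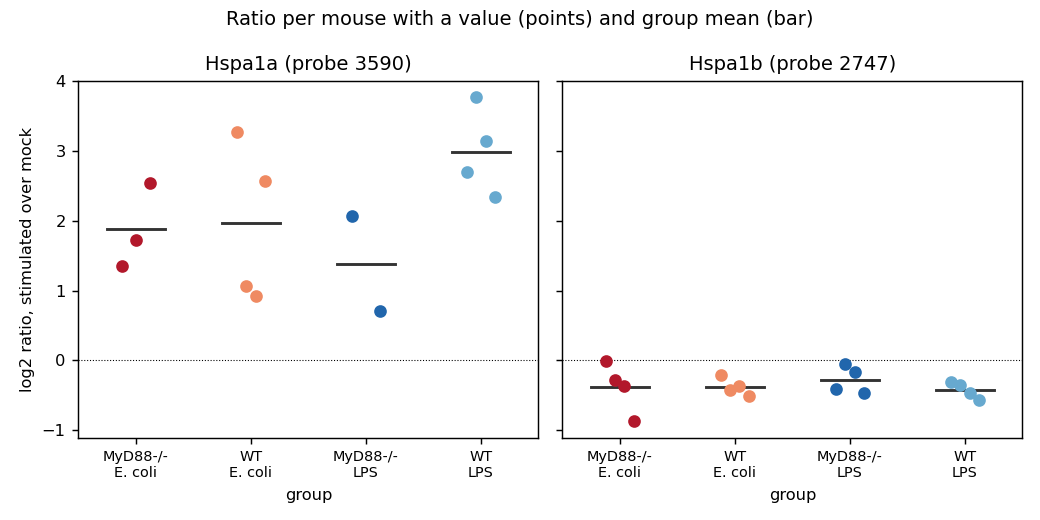
Log2 ratio of stimulated over mock for the probes named Hspa1a and Hspa1b, on a common axis; each point is 1 mouse with a value and the bar is the group mean. All 13 Hspa1a points lie above 0, the highest at 3.77, and all 16 Hspa1b points lie below 0.

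Partners of HSP70, the J-domain and BAG proteins and Hspbp1, had 25 of 41 probes tested. Of these 2 rose and 0 fell in MyD88-/- E. coli, 3 rose and 4 fell in wild-type E. coli, 2 rose and 0 fell in MyD88-/- LPS, and 2 rose and 2 fell in wild-type LPS. Over all probes 6.35% rose and 4.42% fell in MyD88-/- E. coli, and 9.43% and 11.8% in wild-type E. coli. In MyD88-/- LPS these shares were 5.28% and 4.70%, and in wild-type LPS 7.99% and 9.04%. Dnajb4, a J-domain protein of the cytosol, rose more than any other tested member in wild-type mice. In MyD88-/- E. coli the highest fitted ratio was that of Dnajb5 (1.19), at 1.61, 1.27 and 0.70 in the mice with a value. Dnajb2 had mouse ratios of 0.21, 1.13, 1.62 and 1.22 there. Neither was called, and both are named after their values were seen. The mouse ratios of Dnajb4 were 0.83, 0.78, 1.37 and 1.06 in MyD88-/- E. coli, against 1.82, 1.15, 1.51 and 1.24 in wild-type E. coli. They were 0.73, 1.35, 1.10 and 1.83 in MyD88-/- LPS, against 1.36, 1.18, 1.20 and 1.54 in wild-type LPS. Every array with a value, 27 of 27, gave a rise, and the genotypes overlapped. The fitted folds were 2.01, 2.69, 2.38 and 2.50 in MyD88-/- E. coli, wild-type E. coli, MyD88-/- LPS and wild-type LPS (log2 1.01, 1.43, 1.25 and 1.32, SE 0.16). The adjusted p from limma were 0.000599, 1.47e-05, 8.89e-05 and 3.69e-05. Another Dnajb4 probe (12940) had values in only 5 mice, from -1.54 to 1.59 with 4 below 0, and so disagreed.

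Dnaja2, which starts the HSP70 cycle in the cytosol, also rose. Its fitted ratio was 0.60, 0.87, 0.73 and 0.66 in MyD88-/- E. coli, wild-type E. coli, MyD88-/- LPS and wild-type LPS (SE 0.20, adjusted p = 0.0784, 0.00601, 0.0301 and 0.0356). One mouse of each genotype stood near 0, MyD88-/- E. coli mouse 2 at -0.06 and wild-type LPS mouse 3 at 0.01, and without the first of these the MyD88-/- E. coli value of 0.81 passed (adjusted p = 0.0307). Dropping mouse 1, 2 or 4 ended the LPS call in MyD88-/- (0.0882, 0.124 and 0.152) and in wild-type cells (0.172, 0.172 and 0.0689), as did fitting each group alone (0.0797 and 0.130). A dye term ended the MyD88-/- LPS call (0.0930), and centred and scaled arrays brought MyD88-/- E. coli past the threshold (0.0459). Bag5, a BAG protein built of several BAG domains, had 0.63, 0.57, 0.41 and 0.33 (SE 0.16) and passed with E. coli in both genotypes (adjusted p = 0.0162 in MyD88-/- and 0.0166 in wild-type). It did not pass with LPS (0.133 in MyD88-/- and 0.18 in wild-type). On arrays without dye swap alone this pattern turned round: MyD88-/- LPS passed (0.59, adjusted p = 0.0261, and 0.0435 with all arrays centred and scaled), and the E. coli calls were lost (0.0937 in MyD88-/- and 0.0846 in wild-type). Leaving out MyD88-/- E. coli mouse 2 or 4 gave 0.126 or 0.0965, and leaving out wild-type E. coli mouse 1, 2 or 4 gave 0.0792, 0.0525 or 0.0721. Fitted on their own groups the E. coli values had 0.175 and 0.0691.

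Bag3 and Bag1 fell in wild-type macrophages. Bag3, a stress-inducible partner of HSP70 that routes clients to autophagy, had mouse ratios of -0.36, 0.02, -0.54 and -0.26 in MyD88-/- E. coli, against -1.08, -0.60, -0.82 and -0.49 in wild-type E. coli. With LPS it had -0.20, -0.25, -0.35 and -0.44 in MyD88-/- mice, against -0.70, -0.63, -0.82 and -0.72 in wild-type mice. The genotypes did not overlap with LPS, and with E. coli 1 MyD88-/- mouse reached the wild-type range. The fitted ratio was -0.28, -0.75, -0.31 and -0.72 (SE 0.12) in MyD88-/- E. coli, wild-type E. coli, MyD88-/- LPS and wild-type LPS, with adjusted p of 0.159, 0.000278, 0.121 and 0.000483. Bag1, which links HSP70 to the proteasome, had -0.06, -0.36, -0.11 and -0.39 (SE 0.10) and passed in wild-type E. coli (adjusted p = 0.0132) and wild-type LPS (0.00990). The Bag1 calls ended without wild-type LPS mouse 4 (0.0660) and without wild-type E. coli mouse 2 or 3 (0.0522 and 0.0554), and in both groups when only the group itself was fitted (0.139 with E. coli and 0.125 with LPS). On arrays without dye swap the wild-type E. coli call was lost (0.0630).

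Dnajc5 and Dnaja3 were called lower in wild-type E. coli. Dnajc5, the vesicle-bound cysteine string protein, had mouse ratios of 0.09, -0.02, -0.38 and -0.17 in MyD88-/- E. coli, against -1.29, -0.27, -1.05 and -0.89 in wild-type E. coli. It had -0.25, -0.17, -0.05 and -0.26 in MyD88-/- LPS, against 0.09, -0.55, -0.13 and -0.46 in wild-type LPS. Wild-type mice given E. coli stood lowest, apart from mouse 2. The fitted ratio was -0.12, -0.87, -0.18 and -0.26 (SE 0.15), with adjusted p of 0.72, 0.000721, 0.545 and 0.271. Dnaja3, a mitochondrial J-domain protein, had -0.67 in wild-type E. coli (SE 0.20, adjusted p = 0.0258), where mouse 1 stood at -1.83 and the others between -0.36 and -0.21. Without mouse 1 it was -0.28 (adjusted p = 0.124), and fitted on its own group it did not pass (0.20). Dnajb1, the J-domain partner most used in the heat shock response, had -0.31, -0.30, -0.35 and -0.29 in MyD88-/- E. coli, wild-type E. coli, MyD88-/- LPS and wild-type LPS (SE 0.18) and passed in none.

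**Figure D3:**
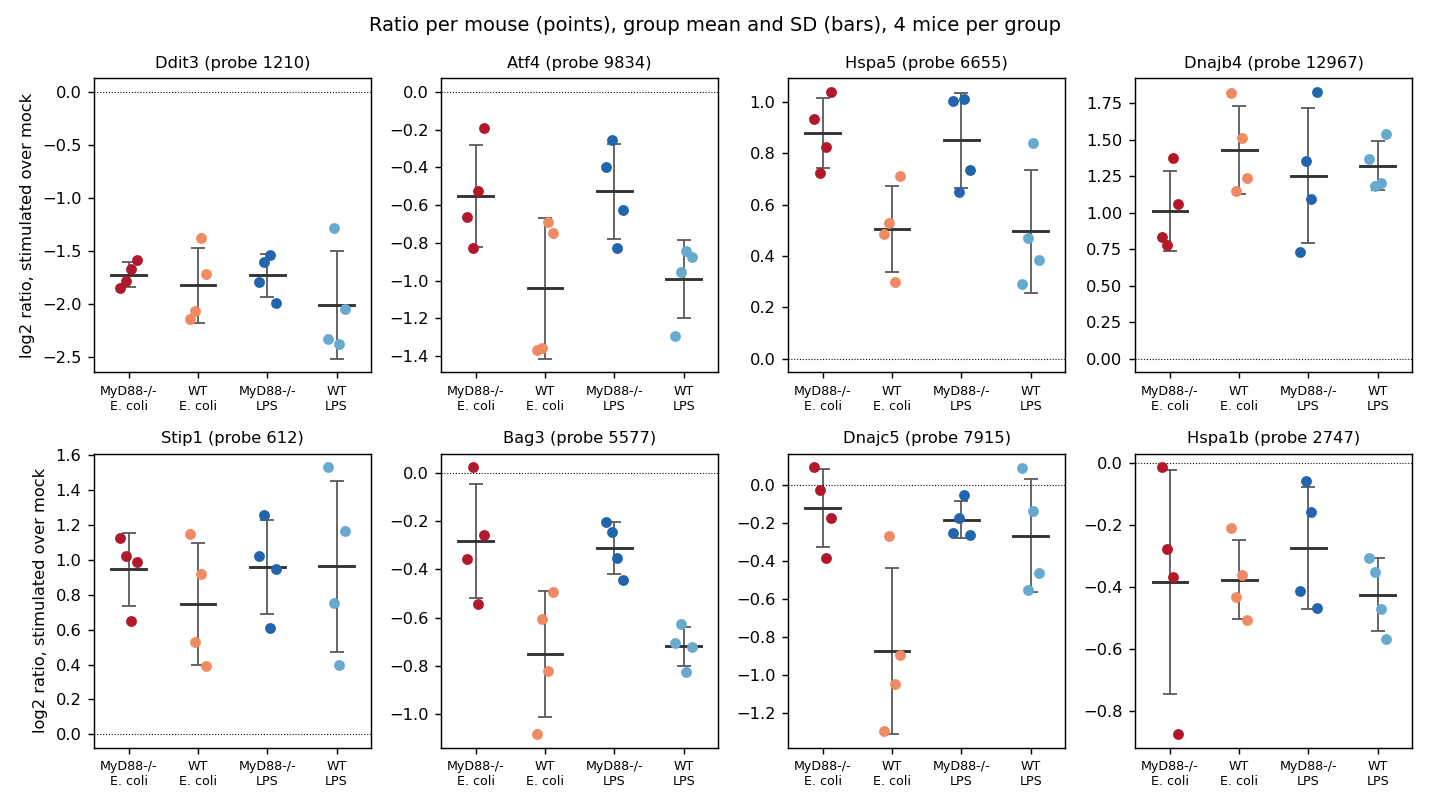
Log2 ratio of stimulated over mock per mouse (points) in the 4 groups for 8 chaperone and stress genes, with the group mean (bar) and SD (whiskers), 4 mice a group; each panel has its own axis. Ddit3, Atf4 and Hspa1b lie below 0 in every mouse, and Hspa5, Dnajb4 and Stip1 above 0 in every mouse.

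HSP90 and its partners had all 5 probes tested, and only Stip1 was called. Stip1, the adaptor also called HOP that hands clients from HSP70 to HSP90, had mouse ratios of 1.12, 1.02, 0.65 and 0.99 in MyD88-/- E. coli, against 1.15, 0.53, 0.92 and 0.39 in wild-type E. coli. It had 1.02, 1.26, 0.61 and 0.95 in MyD88-/- LPS, against 1.53, 0.75, 0.40 and 1.17 in wild-type LPS. All 16 ratios lay above 0 and all groups overlapped, while of 30 arrays with a value 27 lay above 0 and 3 below. The fitted ratio was 0.94, 0.75, 0.96 and 0.96 in MyD88-/- E. coli, wild-type E. coli, MyD88-/- LPS and wild-type LPS (SE 0.17, adjusted p = 0.00183, 0.00633, 0.00175 and 0.00118). The rise was close to a doubling except in wild-type E. coli, where it was smaller. Fitted on its own group, the wild-type LPS call was lost (0.0548). Hsp90aa1, the inducible cytosolic HSP90, had -0.18, 0.05, -0.21 and 0.11 (SE 0.13), and Hsp90b1, the ER HSP90, had 0.22, -0.28, 0.17 and -0.19 (SE 0.18). Fkbp4 and Fkbp5, immunophilins of steroid receptor complexes, had 0.49, -0.72, -0.06 and 0.16 (SE 0.36) and 0.07, -0.06, -0.49 and -0.28 (SE 0.24, or 0.28 in MyD88-/- LPS, where 3 mice had a value). None of these 4 passed in any group. The Fkbp4 mouse ratios were 0.02, 2.28, 0.37 and -0.71 in MyD88-/- E. coli, so that mean rested largely on mouse 2. In wild-type LPS mouse 3 stood at 1.31 and the other mice lay below 0.

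Chaperonins, the barrel-shaped folding machines of the cytosol and mitochondria, gave small ratios. Of 11 probes 9 were tested, and their fitted ratios ranged from -0.42 to 0.46 over the 4 groups. Cct3, a subunit of the cytosolic TRiC ring that folds actin and tubulin, was called in MyD88-/- LPS (0.46 ± 0.13 SE, adjusted p = 0.0296) at mouse ratios of 0.52, 0.59, 0.68 and 0.07, against 0.27, 0.28, 0.31 and 0.32 in wild-type LPS. Dropping mouse 1, 2 or 3 of MyD88-/- LPS ended this call (0.114, 0.112 and 0.151), as did fitting the group alone (0.159) or using arrays without dye swap (0.117). With a dye term Cct3 passed in wild-type E. coli (0.32, adjusted p = 0.0332). Tcp1, another TRiC subunit, had 0.21, 0.08, 0.27 and 0.26 in MyD88-/- E. coli, wild-type E. coli, MyD88-/- LPS and wild-type LPS (SE 0.12). Hspd1, the mitochondrial HSP60, had -0.42, -0.06, -0.05 and 0.12 (SE 0.22). Neither passed, although Hspd1 passed in MyD88-/- E. coli without mouse 1 (-0.74, adjusted p = 0.0320), and Tcp1 on arrays without dye swap in MyD88-/- E. coli (0.48, adjusted p = 0.0325) and wild-type E. coli (0.40, 0.0448). Other FK506-binding proteins had 7 of 9 probes tested, and Fkbp1a, the FKBP12 that binds FK506, was called lower in wild-type LPS (-0.69 ± 0.22 SE, adjusted p = 0.0455). Wild-type LPS mouse 2 stood at -1.96 and the other mice between -0.41 and -0.11, and without it the value was -0.27 (adjusted p = 0.267). This call ended under most other alternatives as well (0.0514 to 0.260). Small heat shock proteins had 3 of 6 probes tested and the heat shock factors 1 of 2, and none of these was called.

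Of all tested members Ddit3 had the lowest fitted ratio in each group. Ddit3, also called CHOP, which is induced by prolonged ER stress and promotes cell death, had mouse ratios of -1.85, -1.79, -1.67 and -1.59 in MyD88-/- E. coli, against -2.14, -2.07, -1.38 and -1.72 in wild-type E. coli. It had -1.79, -1.60, -1.54 and -2.00 in MyD88-/- LPS, against -2.33, -1.28, -2.38 and -2.05 in wild-type LPS. All 29 arrays with a value lay below 0, and the genotypes overlapped with both stimuli. The fitted ratio was -1.72, -1.83, -1.73 and -2.01 in MyD88-/- E. coli, wild-type E. coli, MyD88-/- LPS and wild-type LPS (SE 0.17), so that 0.303, 0.282, 0.301 and 0.248 of the mock RNA level remained. The adjusted p from limma were 4.22e-06, 1.42e-06, 5.10e-06 and 6.36e-07.

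Atf4, the transcription factor of the integrated stress response that acts upstream of Ddit3, fell less. Its mouse ratios were -0.67, -0.83, -0.53 and -0.19 in MyD88-/- E. coli, against -1.37, -1.36, -0.69 and -0.75 in wild-type E. coli. They were -0.40, -0.26, -0.83 and -0.62 in MyD88-/- LPS, against -1.29, -0.96, -0.84 and -0.88 in wild-type LPS. The genotypes did not overlap with LPS, and 30 of 31 arrays lay below 0. The fitted ratio was -0.55, -1.04, -0.53 and -0.99 (SE 0.15, adjusted p = 0.0265, 0.000130, 0.0362 and 0.000244). The MyD88-/- calls were lost when 1 of several mice was left out: with E. coli mouse 1, 2 or 3 (0.0940, 0.147 and 0.0804) and with LPS mouse 1, 3 or 4 (0.0788, 0.182 and 0.139). They were also lost when the group was fitted alone (0.127 with E. coli and 0.114 with LPS). Pdia6, a disulfide isomerase of the ER, had 0.10, 0.15, 0.04 and 0.35 (SE 0.15) and passed in no group, though it passed in wild-type LPS without mouse 3 (0.55, adjusted p = 0.0265).

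Of the 13 probes for ER folding and ER stress 6 were tested. In each of the 4 responses 1 rose (Hspa5) and 2 fell (Ddit3 and Atf4), beside the backgrounds given above. The 3 tested genes with the ER stress letters in a promoter window were Hspa5, Hsp90b1 and Pdia6, and of these only Hspa5 was called. Of 11 tested genes with the heat shock letters 2 were called in any response, Dnajb4 higher and Hspa1b lower, against 11 of 37 tested genes without them. Both Hspa1b calls ended without any 1 mouse of their group. Hspa1a, which has the same letters, was not among the tested genes. These counts pool both directions, and the share of all probes called in any response was not counted, so no contrast is drawn.

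Other genes of protein folding and stress, a list of 70 symbols outside the member set, had 53 genes on the array and 44 probes tested. In MyD88-/- E. coli 1 rose and 2 fell, where 6.35% of all probes rose and 4.42% fell. In wild-type E. coli 2 rose and 10 fell, against 9.43% and 11.8% of all probes. In MyD88-/- LPS 1 rose and 2 fell, against 5.28% and 4.70%, and in wild-type LPS 2 rose and 6 fell, against 7.99% and 9.04%. Falls among the 44 probes exceeded the share of all probes most in wild-type E. coli, and rises lay below it in each group. Whether these shares differ was not tested. Chac1, a glutathione-degrading enzyme and a known target of Atf4 and Ddit3, fell in all 4 groups, by 1.31 ± 0.19 (log2, SE) in MyD88-/- E. coli, 1.18 ± 0.19 in wild-type E. coli, 1.34 ± 0.19 in MyD88-/- LPS and 1.51 ± 0.19 in wild-type LPS. All 16 mouse ratios of Chac1 lay below 0 (adjusted p = 0.000196, 0.000314, 0.000165 and 3.66e-05). Herpud1, which acts in the removal of misfolded ER proteins, rose in all 4 groups, to 0.61, 0.39, 0.53 and 0.48 (adjusted p = 0.00328, 0.0351, 0.0106 and 0.0132), with all 16 mouse ratios above 0. Each Herpud1 call ended when its group was fitted alone (0.0887, 0.158, 0.0859 and 0.0859), and those in wild-type E. coli and in LPS of both genotypes also ended when some single mice were left out (0.0608 to 0.146).

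Genes of the same list also differed in direction between themselves. Ppp1r15a, the GADD34 phosphatase subunit that reverses the block on translation, had MyD88-/- mouse ratios of 0.07, 0.31, 0.28 and 0.89 with E. coli, and -0.14, -0.45 and -0.41 in the 3 mice measured with LPS. It rose in wild-type E. coli (1.14, adjusted p = 0.000605) and in wild-type LPS (0.77, adjusted p = 0.0112, or 0.0587 without mouse 4). With LPS the genotypes did not overlap, and the MyD88-/- minus wild-type difference was -1.11 ± 0.29 SE (adjusted p = 0.183). Cebpg, a dimer partner of Atf4, fell in MyD88-/- E. coli (-0.58, adjusted p = 0.0231, or 0.117 and 0.107 without mouse 1 or 2 and 0.108 when fitted alone), wild-type E. coli (-0.84, 0.00113) and wild-type LPS (-0.82, 0.00176). Both probes of Erp29, an ER folding factor, fell in wild-type E. coli (-0.82 and -0.72, adjusted p = 7.12e-05 and 0.00122) and in wild-type LPS (-0.66 and -0.55, adjusted p = 0.000638 and 0.0105). The first probe (6891) was also called lower in MyD88-/- LPS (-0.38), a call that ended under 15 alternatives. In that group the second probe (10382) had mouse ratios of -0.19, -0.26, -0.61 and -0.04. In MyD88-/- E. coli the mouse ratios were -0.39, -0.50, -0.52 and 0.02 for the first probe and -0.46, -0.35, -0.365 and 0.33 for the second. For the second Erp29 probe the wild-type LPS call ended when the group was fitted alone (0.0550) and without its mouse 2 (0.0557). Syvn1, the ubiquitin ligase HRD1 of the ER, fell by 0.46 in wild-type E. coli (adjusted p = 0.00827) and by 0.44 in wild-type LPS (0.0132). Without a call, its MyD88-/- mouse ratios were -0.29, 0.05, -0.004 and -0.63 with E. coli and -0.28, -0.28, -0.17 and -0.11 with LPS. Both Syvn1 calls ended when the group was fitted alone (0.0816 and 0.0828), and that in wild-type LPS also without mouse 2 or 3 (0.0559 and 0.0568). Cdc37l1, an HSP90 partner, fell by 0.54 in wild-type E. coli (adjusted p = 0.0110, or 0.0603 when the group was fitted alone). Without a call, its mouse ratios were -0.44, -0.46, -0.13 and -0.54 in MyD88-/- LPS, against -0.05, -0.31, -0.24 and -0.81 in wild-type LPS. In MyD88-/- E. coli they were 0.09, -0.16, -0.43 and -0.59.

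**Figure D4:**
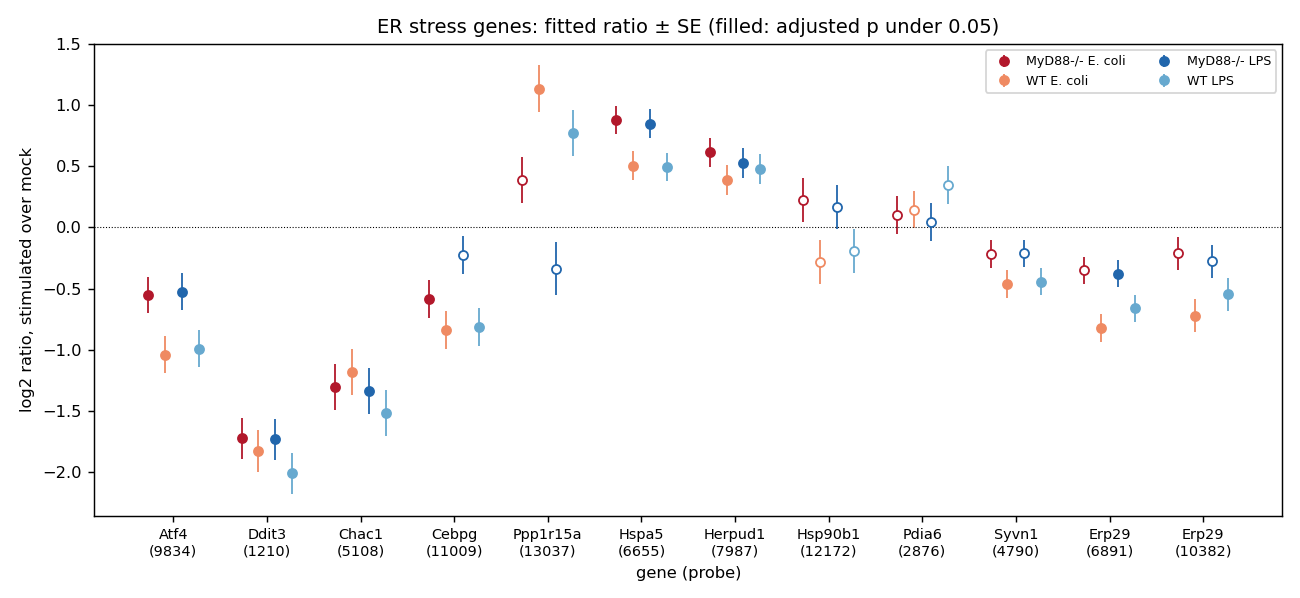
Fitted log2 ratio of stimulated over mock with its SE for 12 probes of ER folding and stress genes in the 4 groups (colours); filled points have an adjusted p under 0.05. Atf4, Ddit3 and Chac1 lie below 0 in every group, Hspa5 and Herpud1 above 0, and Ppp1r15a lies above 0 except in MyD88-/- LPS.

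The design asks whether a response depends on MyD88. The MyD88-/- minus wild-type difference passed the test for 0 members with E. coli (0.751% of all probes) and for 0 members with LPS (0.287% of all probes). At an unadjusted p under 0.05 in limma, 10 members were higher and 0 lower with E. coli, where 7.32% of all probes were higher and 5.98% lower. With LPS 3 members were higher and 2 lower, where 4.05% of all probes were higher and 4.86% lower. The median member difference was 0.13 with E. coli and 0.08 with LPS, against 0.02 and 0.01 over all tested probes. The smallest differences that could pass depend on the error, whose median SE was 0.288 for a difference.

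Hspa5, Atf4, Bag3 and Bag1, picked here after their values were seen, each had a higher ratio in MyD88-/- than in wild-type cells with both stimuli. None of them passed the adjusted test. Of the 63 tested members, 41 had a difference above 0 with E. coli and 39 with LPS, where 3809 and 3794 of all 7325 probes did. Hsp90aa1 and the 3 tested small heat shock proteins had a lower ratio in MyD88-/- cells with both stimuli, also without passing. The Hspa5 difference was 0.37 ± 0.17 SE with E. coli (adjusted p = 0.337) and 0.35 ± 0.17 with LPS (0.56). The Atf4 difference was 0.49 ± 0.21 with E. coli (0.332) and 0.47 ± 0.21 with LPS (0.549), that of Bag3 0.47 ± 0.17 (0.23) and 0.41 ± 0.17 (0.499), and that of Bag1 0.30 ± 0.14 (0.352) and 0.28 ± 0.14 (0.577). For Hspa5 this was a larger rise in MyD88-/- cells, and for Atf4, Bag3 and Bag1 a smaller fall. The Dnajc5 difference with E. coli was 0.75 ± 0.22 (adjusted p = 0.131), and it passed when wild-type E. coli mouse 2 was left out (0.96, adjusted p = 0.0373). The Ddit3 difference was 0.10 ± 0.24 with E. coli and 0.28 ± 0.24 with LPS, small beside the falls of both genotypes. Differences of opposite sign, also chosen after their values were seen, included that of Hspb9 with LPS (-1.04 ± 0.34, adjusted p = 0.344). Dnajc1 probe 3674 had -0.94 ± 0.28 with LPS (adjusted p = 0.282), while the other Dnajc1 probe (647) had -0.04 ± 0.41.

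**Figure D5:**
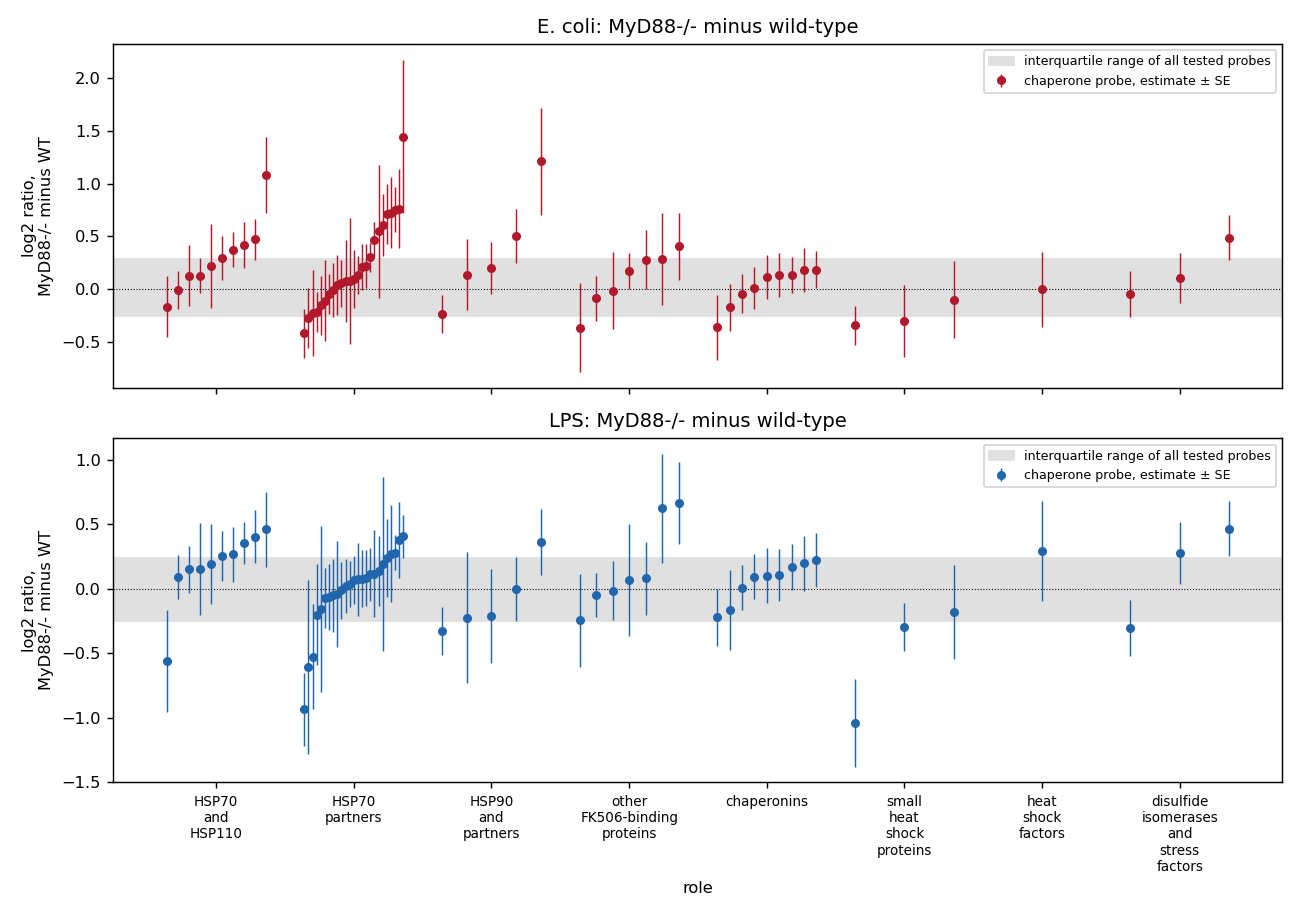
Difference in log2 ratio, MyD88-/- minus wild-type, with its SE for each tested chaperone probe, grouped by role, with E. coli (upper panel) and LPS (lower panel); the grey band is the interquartile range of all tested probes. No point passed an adjusted p of 0.05, and the median chaperone difference is 0.13 with E. coli and 0.08 with LPS.

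The mouse ratios of the genotypes did not overlap for 6 members with each stimulus. With E. coli 5 members lay higher in MyD88-/- mice (Bag1, Hspa5, Hspa8, Dnaja3 and Hspa13) and 1 lower (Hspb2). Of all probes 9.08% did not overlap with E. coli, 4.78% higher and 4.3% lower. With LPS 3 lay higher (Bag1, Bag3 and Atf4) and 3 lower (Dnajc1 probe 3674, Hsp90aa1 and Hspb9). Of all probes 6.68% did not overlap with LPS, 3.4% higher and 3.28% lower. Of the 63 tested members, the total with E. coli lay near the share of all probes, with more members higher and fewer lower. With LPS the total lay above that share. These counts are small, and whether they differ from all probes was not tested. Bag1 alone was named with both stimuli.

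No chaperone response differed between live bacteria and LPS by the adjusted test. The E. coli minus LPS difference was called for 0 members in MyD88-/- and 0 in wild-type cells, and the interaction of genotype and stimulus for 0 members (0.00% of all probes in each, by limma). At an unadjusted p under 0.05 these counts were 0, 3 and 1, where 2.42%, 4.05% and 2.99% of all probes reached it. The interaction was that of Dnajc5 (0.67 ± 0.31 SE, adjusted p = 1.00), and the 3 members in wild-type cells were Dnajc5 (-0.61 ± 0.22), Hspa14 (0.72 ± 0.29) and Hspa4l (-0.89 ± 0.37), named after their values were seen.

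The 32 members without a test had values in 2 to 13 mice, with a median of 7. Apart from Hspa1a, with its 13 ratios above 0, and Fkbp1b, with 3 ratios all below 0, each of them had ratios on both sides of 0. Some leaned to one side, and those that follow are named after their values were seen. Hspb8, a small heat shock protein, lay above 0 in 9 of 10 mice with a value, and Pdia5 in 11 of 12. Dnajc28 lay below 0 in 10 of 13 mice and Fkbp11 in 8 of 10. Hyou1, the HSP110 of the ER, ranged from -1.23 to 1.72, and Dnaja1, a main J-domain protein of the cytosol, from -1.07 to 2.26. Hspe1, the lid of the mitochondrial chaperonin, ranged from -1.83 to 2.41 and Dnajc3, an ER J-domain protein, from -1.94 to 2.49. Hspb1, the small heat shock protein HSP27, had 1.92 and -1.52 in its only 2 mice, and Xbp1, a transcription factor of the unfolded protein response, lay between -0.90 and 0.69. Dnajb9, Hsf2 and the Pdia4 probes likewise held both signs, so the deposited ratios do not give these genes a direction. With 2 mice per group as the filter, 7 of the 32 could be tested, and beside Hspa1a only Pdia5, a disulfide isomerase, was called, in wild-type E. coli (0.83 ± 0.25 SE, adjusted p = 0.0486).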

How the data were processed

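RNA of stimulated and mock macrophages was compared on 31 spotted 2-colour arrays, 4 mice in each of 4 groups. The deposited values are log2 ratios. The authors scanned the slides and used GenePix, BASE and GeneSpring, per the labels' protocols, and the background correction, normalization and spot filter are not given in the sources used here. No file gives counts, so the number of arrays limits the precision.

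Values at the floor of log2(0.01) were treated as missing (19 of 2160 member values, 2 of them in tested members). Dye pairs were averaged to 16 mouse ratios. MyD88-/- LPS mouse 4 had 1 array. All 15 dye pairs correlated above 0 (r 0.256 to 0.710 across probes), so none was turned. Probes with values in at least 3 of 4 mice of every group were fitted together with limma 3.58.1 in R 4.3.3 (lmFit, eBayes) and adjusted by Benjamini and Hochberg over 7325 probes. All p are 2-sided. The fit was tested on simulated data. Figures used matplotlib 3.10.9 in python 3.11.15. 0 columns were left unmapped.

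The members and lists were chosen with earlier results of these data known. Symbols come from GEO's platform annotation, and all 95 member probes matched a current gene by Entrez ID. Named genes are every called member, a fixed set of main chaperones and stress factors, and the 8 probes of smallest p of the protein folding list. Others are said to be named after their values were seen.

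Mouse numbers recur under both stimuli in the labels, which do not say whether the animal was the same. Residuals of same-numbered samples had correlations of -0.057 to 0.142, and 2 of 8 samples matched their own number best, so a block for the mouse number served only as an alternative. The other alternatives kept floor values, centred or scaled arrays, changed the missing-value filter, added a dye term with a random mouse block, used arrays without dye swap, fitted only the groups compared, used robust eBayes or left out each mouse ratio in turn. Fitting Hspa1a without single mice, and the alternatives for the protein folding list, were added after seeing the data.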

Additional observations from a re-analysis of the deposited data

Results flagged for a closer look

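In 5 of 103 groups of 4 mice checked for the named members, 1 mouse stood far from the other 3, by Dixon's test for a single outlying value. Chance alone gives about 1 such group in 20. Wild-type LPS mouse 3 stood apart for 2 genes: Fkbp4 at a log2 ratio of 1.31, with the other mice between -0.368 and -0.137, and Hsph1 at -0.283, with the others between 0.000512 and 0.0275. MyD88-/- LPS mouse 3 stood apart for Pdia6, at 0.396 against others between -0.105 and -0.0325. Wild-type LPS mouse 2 stood apart for Fkbp1a, at -1.96 against others between -0.414 and -0.111. Wild-type E. coli mouse 1 stood apart for Dnaja3, at -1.83 against others between -0.357 and -0.209. What set these values apart was not tested.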

How the results depend on the processing

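Of 35 calls of chaperone probes in the 4 responses, 19 held under every alternative and 16 ended under at least 1, and none reversed. Of 199 values of named probes that were not called, 9 passed under at least 1 alternative. When only the groups of a comparison entered the fit, with fewer samples to estimate the spread, 7 members were called in wild-type E. coli (12 in the joint fit), 4 in MyD88-/- LPS (7) and 4 in wild-type LPS (10). Over all probes the calls moved likewise, to 848 (1554), 417 (731) and 653 (1247). Leaving out 1 mouse at a time gave 5 to 7 called members in MyD88-/- E. coli, 9 to 12 in wild-type E. coli, 4 to 8 in MyD88-/- LPS and 7 to 10 in wild-type LPS. The lowest count in MyD88-/- LPS, 4, came without MyD88-/- LPS mouse 1. For the MyD88-/- minus wild-type difference this gave 0 to 1 with E. coli and 0 to 0 with LPS, and 0 to 0 for the differences between stimuli and the interaction. With the mouse number as a replicate block, 0 members were called for the E. coli minus LPS differences and 0 for the interaction. The dye term with a random mouse block called 16 members in wild-type E. coli, 6 higher and 10 lower, and 1842 probes in all. On the protein folding list, fitting only the group compared left 1, 5, 1 and 4 calls in MyD88-/- E. coli, wild-type E. coli, MyD88-/- LPS and wild-type LPS. The dye term gave 5 calls in MyD88-/- E. coli and 3 for the MyD88-/- minus wild-type difference with E. coli, both probes of Erp29 among these, and leaving out wild-type LPS mouse 2 gave 4 in wild-type LPS. The Erp29 probe 6891 call in MyD88-/- LPS (-0.38, adjusted p = 0.0428) ended under 15 alternatives. The causes were not tested.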
